A study of Rattus norvegicus with 14 samples.

Results

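The elastic fibre and microfibril genes described here are Eln, Fbn1, Fbn2, Mfap5, Lox, Loxl1, Fbln1 and Fbln2, 8 of the 14497 genes tested. They were chosen by name, and their values were read from probe sets annotated with that 1 symbol. Each of the 8 had a single such probe set on the array and shared none with another gene. Foreskin RNA came from Sprague Dawley rat pups on postnatal day 5. Their mothers had received oral gavage each day from gestational day 16 to 20. The flutamide group, 7 litters, had been exposed in utero to 5 mg/kg/day of flutamide, an antagonist of the androgen receptor. The corn oil group, also 7 litters, came from dams given the vehicle alone. RNA from 2 foreskins of a litter was combined and hybridised to an Affymetrix Gene 1.0 ST array, so the litter was the replicate. All values are log2 array signals.

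Elastic fibres give skin its recoil. Tropoelastin, the product of Eln, is laid down on a scaffold of microfibrils, whose core is made of fibrillins, and is then joined into an insoluble polymer by lysyl oxidases. Fibulins and microfibril-associated proteins link the parts to one another and to other matrix. In developing skin these genes are expressed mainly by fibroblasts and vascular cells, and elastin is made mostly in late fetal and early postnatal life. The comparison of the groups asked whether antiandrogen exposure before birth left a difference in these transcripts in the newborn prepuce.

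None of the 8 genes passed the test at an adjusted p under 0.05 in limma's moderated test over all genes, beside 0.0069% of all genes called in either direction. Mfap5, which encodes a microfibril-associated glycoprotein, had the largest difference, with lower values in flutamide litters, a 0.788-fold level (95% confidence interval 0.651 to 0.953). Eln and Lox had somewhat higher values in flutamide litters, at 1.11-fold (interval 1.01 to 1.22) and 1.07-fold (interval 0.993 to 1.14). In all, 4 genes had higher and 4 had lower group means, with a median difference of -0.003 against 0.005 over all genes. The median size of the difference was 0.085 for the 8 genes and 0.060 over all genes. For 7 of the 8, all but Mfap5, the 95% confidence interval excluded a difference of 1.3-fold in either direction, as it did for 92.9% of all genes.

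Before adjustment, 2 of the 8 genes had a limma p under 0.05, beside 9.16% of all genes. Eln was the 1 with higher values, where 5.70% of all genes were higher at that threshold. Mfap5 was the 1 with lower values, where 3.46% of all genes were lower. Each of the 8 had a single probe set, so alternative probe set rules and a filter on dim genes left its values unchanged. In limma fits under 24 alternative settings, those among them, the unadjusted p was under 0.05 in 15 for Eln and in 22 for Mfap5. For Eln it was up to 0.0903, reached without flutamide replicate 3, and it was also above 0.05 without corn oil replicate 2, 3 or 4, without flutamide replicate 6 or 7, without corn oil replicate 1 and flutamide replicate 7 together, with array weights and with array SD as a covariate. For Mfap5, leaving out corn oil replicate 1 together with flutamide replicate 7 gave 0.0648, and it was 0.0581 with array SD as a covariate. An exact permutation test of each gene over all 3432 splits of the litters, two-sided, gave an unadjusted p under 0.05 for 3 of the 8, beside 8.47% of all genes, and no gene of the array passed it after adjustment over all genes. The groups overlapped for all 8 genes, as for all but 0.124% of the genes tested. Corn oil replicate 1 stood apart for Mfap5 and Loxl1, and flutamide replicate 1 stood apart in 9 interferon-response markers, with a mean of 5.50 where corn oil litters had 4.46 to 4.65. Without flutamide replicate 1 the differences were 0.17 for Eln, 0.08 for Lox and -0.37 for Mfap5. Without corn oil replicate 1 they were 0.15 for Eln, 0.10 for Lox and -0.22 for Mfap5.

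**Figure D1:**
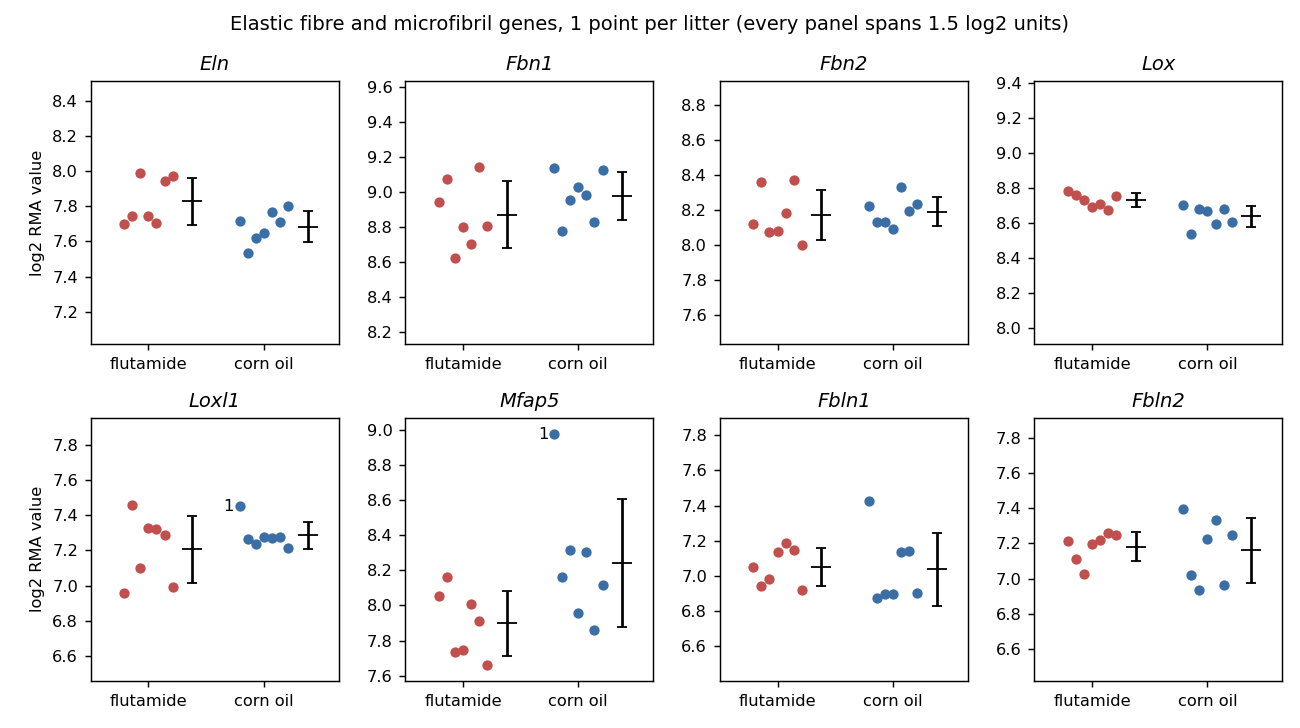
Log2 RMA values of the 8 genes (vertical axes) in flutamide litters (left, red) and corn oil litters (right, blue), 1 point per litter, with the mean and SD of each group in black. Every panel spans the same width of log2 units, so the narrow spread of Lox and the wide spread of Mfap5 can be read directly; corn oil litter 1 is marked where it stands apart, at 7.45 for Loxl1 and 8.98 for Mfap5.

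Eln encodes tropoelastin, the monomer of elastin. Its values ran from 7.70 to 7.99 in flutamide litters, with a median of 7.75, against 7.54 to 7.80 in corn oil litters, with a median of 7.71. All 7 flutamide litters lay above the corn oil mean, and 3 of them, at 7.95 to 7.99, lay above every corn oil litter. The other flutamide litters sat within the range of the corn oil group. Means were 7.83 ± 0.13 in flutamide and 7.69 ± 0.09 in corn oil litters (SD, n = 7 each). They differed by 0.14 (SE 0.07), at a limma p of 0.0387 and an adjusted p of 0.520. By the exact permutation test p was 0.0455, with an adjusted p of 0.568 over all genes.

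Fbn1 and Fbn2 encode fibrillin-1 and fibrillin-2, the core proteins of microfibrils, of which fibrillin-2 is made mainly during development. Fbn1 ran from 8.62 to 9.14 (median 8.81) in flutamide litters, against 8.78 to 9.14 (median 8.98) in corn oil litters. For Fbn2 the range was 7.999 to 8.37 (median 8.12) in flutamide litters, against 8.09 to 8.33 (median 8.19) in corn oil litters. The groups overlapped widely: 2 flutamide litters lay below and 1 above the corn oil range for Fbn1, and 3 lay below and 2 above it for Fbn2. Fbn1 differed by -0.11 (SE 0.08; limma adjusted p = 0.740), with an interval from -0.28 to 0.07. Fbn2 differed by -0.02 (SE 0.07; limma adjusted p = 0.954), with an interval from -0.16 to 0.12. Without corn oil replicate 5, or without flutamide replicate 7, the Fbn2 difference was 0.00296 and 0.00782, so its sign was not settled.

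The fibrillins can also be set against each other within an array, as the log2 signal of Fbn1 minus that of Fbn2. This ratio averaged 0.70 ± 0.12 in flutamide and 0.79 ± 0.14 in corn oil litters (SD, n = 7 each). It ran from 0.52 to 0.83 in flutamide litters, against 0.64 to 0.94 in corn oil litters, with 2 flutamide litters below the corn oil range. Probe sets differ in how brightly they report the same amount of RNA, so the ratio serves to compare groups and does not give the amount of one transcript relative to the other. For the same reason no order of abundance is read from the levels of the 8 genes, whose means in flutamide litters ran from 7.05 for Fbln1 to 8.87 for Fbn1. The ratios of related genes were chosen after the values were seen and were given no test.

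Mfap5 binds fibrillin on the surface of microfibrils. Flutamide litters ran from 7.66 to 8.16, with a median of 7.91, against 7.86 to 8.98 in corn oil litters, with a median of 8.16. All 7 flutamide litters lay below the corn oil mean and 3 lay below every corn oil litter. Corn oil replicate 1, at 8.98, stood above all other litters, of which the next in the corn oil group was at 8.32. Means were 7.90 ± 0.19 in flutamide and 8.24 ± 0.36 in corn oil litters (SD, n = 7 each). The difference of -0.34 (SE 0.13; interval -0.62 to -0.07) had a limma p of 0.0168 and an adjusted p of 0.435. The exact permutation p was 0.0280 and 0.510 after adjustment over all genes. In size the Mfap5 difference was as large as or larger than that of 99.6% of the genes tested, and its spread within groups was wider than or equal to that of 97.8% of them.

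The Mfap5 difference without corn oil replicate 1 had a limma adjusted p of 0.558. The corn oil SD was then 0.18, and the corn oil mean 8.12. Without both corn oil replicate 1 and flutamide replicate 7, the arrays with the widest and the narrowest spread of values, at an SD of 1.76 and 1.68, the difference was -0.18. When array SD was a covariate it was -0.25. The sign was negative in each of these fits.

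**Figure D2:**
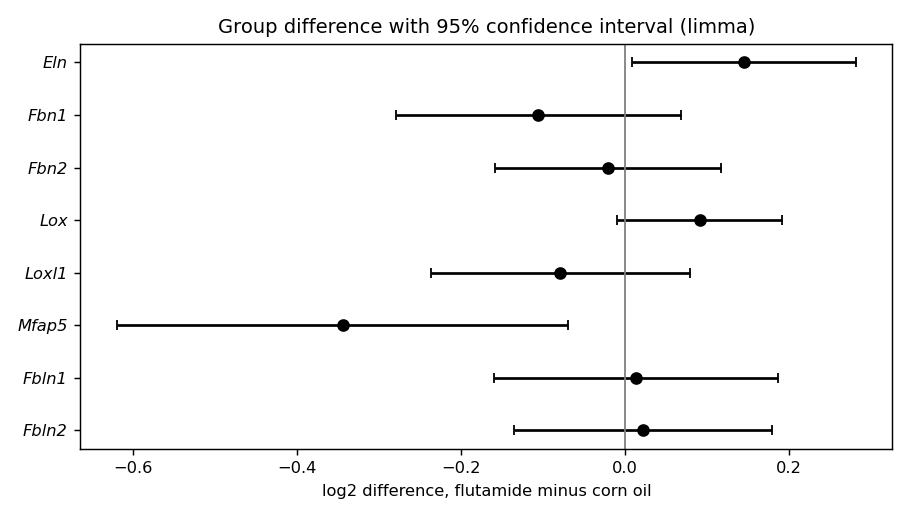
Log2 difference between flutamide and corn oil litters (horizontal axis, flutamide minus corn oil) for each of the 8 genes, with limma's 95% confidence interval. The intervals of Eln, 0.01 to 0.28, and Mfap5, -0.62 to -0.07, lie on one side of 0 before adjustment, and that of Mfap5 is the widest of the 8.

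RefSeq promoter windows of the GRCr8 assembly, 250 bases before to 50 bases after the gene start, were at hand for 5 of the 8 genes, Fbn1, Fbn2, Mfap5, Loxl1 and Fbln2. In the Fbn1 and Fbn2 windows the 50 bases after the gene start open with ATG and hold no stop codon in that frame. The start given for these 2 genes may thus be that of the coding sequence. Their windows may then miss the promoter, and a motif absent from them says nothing about it. Because the exposure was to an antiandrogen, they were searched on both strands for the androgen receptor half-site AGAACA, and for the palindrome of that half-site and its reverse complement 3 bases apart, which overlaps with it. Neither was found in the 5 windows. Among all 33469 promoter windows of that length, 20.7% hold the half-site and 0.0149% the palindrome. The GC box GGGCGG, present in 33.1% of all windows, the TATA box TATAAA, in 14.2%, and the CCAAT box, in 37.5%, were searched in the same way. Mfap5 held 1 CCAAT box, read on the minus strand of the gene, and Fbln2 held 3 GC boxes, with no match to these motifs in the other 3. The windows of Mfap5, the gene with the largest group difference, of Fbn1, the fibrillin of the scaffold it binds, and of Fbln2, the one with GC boxes, are given 5′ to 3′ on the strand of the gene, with motif matches in capitals. Mfap5 is at chr4:157399669-157399968 on the plus strand, Fbn1 at chr3:133203341-133203640 on the minus strand and Fbln2 at chr4:125261409-125261708 on the plus strand.
Mfap5: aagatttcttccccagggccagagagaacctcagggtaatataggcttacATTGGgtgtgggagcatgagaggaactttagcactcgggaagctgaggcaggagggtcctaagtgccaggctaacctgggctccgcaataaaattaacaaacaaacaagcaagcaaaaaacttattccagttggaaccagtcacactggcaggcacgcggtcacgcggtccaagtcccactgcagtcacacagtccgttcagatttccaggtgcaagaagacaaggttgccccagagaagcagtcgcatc
Fbn1: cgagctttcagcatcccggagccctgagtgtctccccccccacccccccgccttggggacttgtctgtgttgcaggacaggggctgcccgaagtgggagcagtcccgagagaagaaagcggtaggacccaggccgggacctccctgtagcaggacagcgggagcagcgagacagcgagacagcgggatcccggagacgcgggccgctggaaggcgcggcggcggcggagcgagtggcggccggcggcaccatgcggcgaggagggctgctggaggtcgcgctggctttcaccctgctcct
Fbln2: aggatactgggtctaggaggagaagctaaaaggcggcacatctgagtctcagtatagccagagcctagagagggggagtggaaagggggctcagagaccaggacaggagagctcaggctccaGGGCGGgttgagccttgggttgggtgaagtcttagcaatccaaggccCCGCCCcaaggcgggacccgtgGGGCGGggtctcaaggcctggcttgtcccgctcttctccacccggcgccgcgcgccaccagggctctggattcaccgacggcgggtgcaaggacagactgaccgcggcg

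These windows differ in base composition. G and C made up 51.7% of the Mfap5 window, equal to the median of all windows, and the window held 8 CpG dinucleotides against a median of 7. The Fbn1 window was 70.7% G and C with 28 CpG dinucleotides, that of Fbn2 69.3% with 38, that of Fbln2 64.7% with 18 and that of Loxl1 61.0% with 6. Because the Fbn1 and Fbn2 windows have ATG at the gene start, they may hold coding sequence and the bases just before it. Their composition is therefore not read as that of promoters. A match or its absence describes these letters only, and nothing was drawn from it about binding of a factor.

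Lox and Loxl1 encode copper-dependent lysyl oxidases that crosslink elastin, and Lox also crosslinks collagen. Lox ran from 8.67 to 8.78 in flutamide litters, with a median of 8.73, against 8.53 to 8.70 in corn oil litters, with a median of 8.67. All 7 flutamide litters lay above the corn oil mean and 5 lay above every corn oil litter, so the groups overlapped only at the edge. Means were 8.73 ± 0.04 in flutamide and 8.64 ± 0.06 in corn oil litters (SD, n = 7 each). The difference was 0.09 (SE 0.05), with an interval from -0.01 to 0.19.

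The tests differed in how they read Lox. Its limma p was 0.0734 and its adjusted p 0.588. The exact permutation p was 0.00583, the smallest of the 8 genes, and 0.402 after adjustment over all genes. Spread within groups was 0.051 for Lox, where the median gene had 0.138, and 0.435% of genes, Lox among them, had a spread that narrow. Limma draws the variance of each gene toward a value shared by all genes, which widens the error of a gene as quiet as this one. The exact test uses the litters of Lox alone.

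Loxl1 had more spread among flutamide litters. Its values ran from 6.96 to 7.46 in flutamide litters, with a median of 7.29, against 7.22 to 7.45 in corn oil litters, with a median of 7.27. Flutamide litters 1, 3 and 7 lay below the corn oil group, and the corn oil litters other than replicate 1 were confined to 7.22 to 7.28. The SD was 0.19 in flutamide and 0.08 in corn oil litters (n = 7 each). Without corn oil replicate 1, which was at 7.45, the corn oil SD was 0.026. This difference in spread was not tested. The group means differed by -0.08 (SE 0.08; limma adjusted p = 0.793), with an interval from -0.24 to 0.08, and by -0.05 without corn oil replicate 1 and -0.04 without flutamide replicate 1. The log2 signal of Lox minus that of Loxl1 averaged 1.52 ± 0.21 in flutamide and 1.35 ± 0.07 in corn oil litters (SD, n = 7 each), with 3 flutamide litters above the corn oil range.

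Fbln1 and Fbln2 encode fibulin-1 and fibulin-2, calcium-binding glycoproteins found with elastic fibres and basement membranes. Fbln1 ran from 6.92 to 7.19 (median 7.05) in flutamide litters, against 6.87 to 7.43 (median 6.90) in corn oil litters. For Fbln2 the range was 7.03 to 7.26 (median 7.21) in flutamide litters, against 6.93 to 7.40 (median 7.22) in corn oil litters. For both fibulins every flutamide litter lay inside the range of the corn oil litters. Fbln1 differed by 0.01 (SE 0.08; limma adjusted p = 0.982) and Fbln2 by 0.02 (SE 0.08; limma adjusted p = 0.960). Leaving out single litters moved Fbln1 between -0.01 and 0.08 and Fbln2 between -0.02 and 0.06, with either sign, and the upper end of both ranges was reached without corn oil replicate 1. The log2 signal of Fbln1 minus that of Fbln2 averaged -0.13 ± 0.10 in flutamide and -0.12 ± 0.19 in corn oil litters (SD, n = 7 each).

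**Figure D3:**
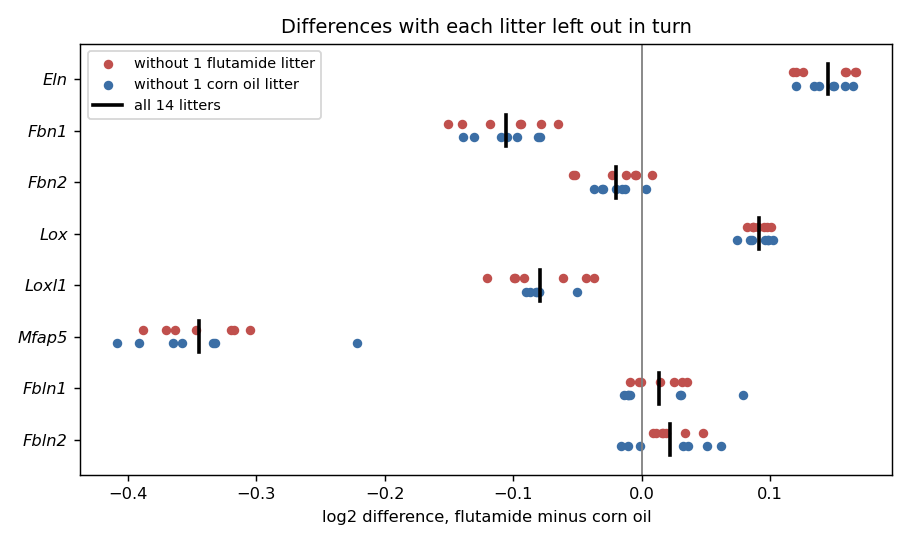
Log2 difference between flutamide and corn oil litters (horizontal axis, flutamide minus corn oil) when 1 flutamide litter (red) or 1 corn oil litter (blue) was left out, with the value from all 14 litters as a black bar. The point of Mfap5 at -0.22, set apart from the others of that gene, is the fit without corn oil replicate 1, which also gives the point of Fbln1 at 0.08.

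Corn oil replicate 1 was the highest of the corn oil litters for 6 of the 8 genes and the highest of all 14 litters for 3, Mfap5, Fbln1 and Fbln2. Its fibroblast marker level, the mean log2 value of 8 genes such as Col1a1 and Pdgfra, was 9.27, and 2 flutamide litters were higher. Its mean over 6 macrophage markers was 6.50 and over 6 endothelial markers 7.35, the highest of all 14 litters in each case. It was also the highest of the 14 for the 8 inhibitors of matrix proteases, at 7.02. For the 5 cartilage markers it was the lowest of the 14, at 5.39, and it ranked 12 of 14 from the highest for the 7 genes of fibrillin processing and the ADAMTS family, at 5.73. Whether these levels have a part in its elastic fibre values was not tested.

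Variation between litters was then compared among the 8 genes, with the group mean taken from each value so that the group difference played no part. Of the 28 pairs, 23 had a Pearson r above 0 and the median r was 0.25, beside 52.4% above 0 and a median of 0.02 for these genes with all other genes. Without corn oil replicate 1, 16 of the 28 were above 0 and the median r was 0.08. No pair passed after Benjamini-Hochberg adjustment over the 28 pairs, where the smallest adjusted p was 0.311 in a permutation test, and 3 had an unadjusted p under 0.05. The pair with the highest r was Fbn1 and Fbn2, at r = 0.63 (permutation p = 0.0157, adjusted 0.311) and Spearman's rho = 0.63 (permutation p = 0.0187, adjusted 0.400). Its r was 0.77 in flutamide and 0.30 in corn oil litters, and 0.47 without the 2 litters farthest from the median of Fbn1. For Fbn1, 4.99% of all genes had a higher r than Fbn2 did.

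By Pearson r, the other pairs with an unadjusted p under 0.05 joined a microfibril gene to a fibulin or a lysyl oxidase. By Spearman's rho the other pairs were different ones. Fbn2 and Mfap5 had rho = 0.58 (permutation p = 0.0323, adjusted 0.400) and r = 0.42 (permutation p = 0.140). Fbn1 and Fbln2 had rho = 0.56 (permutation p = 0.0429, adjusted 0.400) and r = 0.53 (permutation p = 0.0538). Mfap5 and Fbln1 had r = 0.58 (permutation p = 0.0338, adjusted 0.311) and rho = 0.27 (permutation p = 0.350, adjusted 0.699), and without corn oil replicate 1 the r was -0.01, so the relation rested on that litter. Fbn2 and Loxl1 had r = 0.58 (permutation p = 0.0302, adjusted 0.311) and rho = 0.46 (permutation p = 0.0977, adjusted 0.456). Their r was 0.69 in flutamide and 0.13 in corn oil litters, and 0.38 without the 2 litters farthest from the median of Fbn2. Lox and Eln had the lowest median r with the 7 other genes, at 0.02 and 0.05. The highest r was 0.27 for Lox, with Mfap5, and 0.24 for Eln, with Fbln2.

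Within groups the picture differed. The median r over the 28 pairs was -0.01 in flutamide and 0.49 in corn oil litters, with 13 and 27 pairs above 0. Without corn oil replicate 1 the corn oil median was 0.15, with 17 pairs above 0 over 6 litters. Lox and Fbln1 had the lowest r in flutamide litters, at -0.73, and an r of 0.49 in corn oil litters. Eln and Mfap5 also ran opposite in flutamide litters, at r = -0.69, and had an r of 0.11 in corn oil litters. Eln and Fbn2 had r = -0.18 in flutamide and 0.77 in corn oil litters. The differences between the groups in these correlations were not tested, and each within-group value rests on 7 litters.

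**Figure D4:**
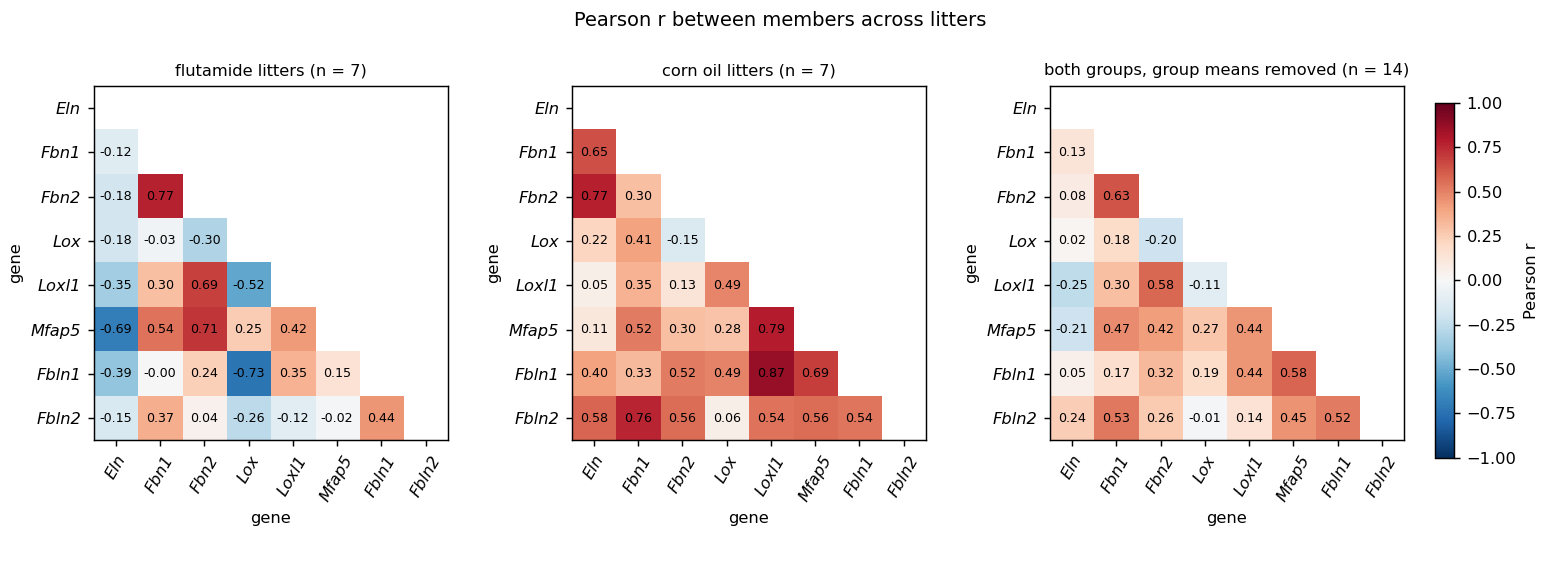
Pearson r between each pair of the 8 genes across litters, in flutamide litters (left), in corn oil litters (middle) and over both groups with group means removed (right), on a colour scale from -1 to 1. The corn oil panel is mostly positive, with a median of 0.49 that was 0.15 without replicate 1, and the flutamide panel is mixed, with a median of -0.01.

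The genes most like each of the 8 across the 14 litters, with group means removed, were taken from all genes other than predicted ones. Being the top 3 of so many genes, they have a high r by selection, which is given with no test. Fbn1 was most like Prkar1a (r = 0.93), a regulatory subunit of protein kinase A, Cltc (r = 0.93), the clathrin heavy chain, and Vcan (r = 0.91), the proteoglycan versican, which binds fibrillin microfibrils. For Fbn2 they were Psma7 (r = 0.92), Cpt1a (r = 0.92) and the collagen gene Col1a2 (r = 0.90). Mfap5 was closest to Selenop (r = 0.91), Clxn (r = 0.89) and Rpa3 (r = 0.88). Eln was nearest to Or10ag54b (r = 0.90), an olfactory receptor gene at a low level of 1.53, Sppl2b (r = 0.89) and Evx1 (r = 0.88).

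Among the crosslinking enzymes, Loxl1 was most like Timp2 (r = 0.89), an inhibitor of matrix metalloproteinases, then Mtmr12 (r = 0.88) and Lrrc39 (r = 0.84). Lox was most like Zfp830 (r = 0.82), Qsox2 (r = 0.80) and Aig1 (r = 0.80), the lowest of the top values for the 8 genes. Fbln1 was most like Hsd17b10 (r = 0.90), Rps15 (r = 0.90) and Hist1h2bq (r = 0.87), and Fbln2 most like Mrpl55 (r = 0.92), Dpy30 (r = 0.91) and Egln1 (r = 0.88). None of the 8 elastic fibre genes was among the top 3 of another.

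Other genes of elastic fibre assembly, turnover and signalling were read from the same fit. None of the 54 measured passed, and 5 had an unadjusted limma p under 0.05, 3 higher and 2 lower in flutamide litters, beside 9.16% of all genes, 5.70% higher and 3.46% lower. Of 9 measured elastin- and microfibril-binding proteins, 5 had higher and 4 lower means in flutamide litters, with a median of 0.01. Those with the smallest p-values were Efemp1, a fibulin family member, at -0.13 (SE 0.08; limma adjusted p = 0.646), and Mfap4, a microfibril-associated protein, at 0.08 (SE 0.09; limma adjusted p = 0.831). Fbln5, which tethers elastin to cells, differed by 0.03, and Efemp2, which is needed for lysyl oxidase to act on elastin, by 0.06. Among 5 genes for other lysyl oxidases and copper supply, 2 were higher and 3 lower, with a median of -0.04. Loxl3, a lysyl oxidase family enzyme, differed by -0.14 (SE 0.06; limma adjusted p = 0.541) and Atp7a, the copper pump that supplies these enzymes, by 0.08 (SE 0.07; limma adjusted p = 0.768).

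Some latent TGF-beta binding proteins attach the growth factor to microfibrils. Of 9 measured genes for these proteins, the ligands and their receptors, 5 were higher and 4 lower in flutamide litters, with a median of 0.02. Tgfbr3, the coreceptor betaglycan, differed by -0.17 (SE 0.06; limma adjusted p = 0.416), and Ltbp2, which binds fibrillin-1, by 0.13 (SE 0.06; limma adjusted p = 0.541). In the fibrillin processing and ADAMTS family list 6 of 7 were higher, with a median of 0.08, led by Adamtsl5 at 0.15 (SE 0.07; limma adjusted p = 0.520) and Adamtsl4 at 0.12 (SE 0.08; limma adjusted p = 0.683). These are secreted proteins that associate with fibrillin microfibrils. Litter means of this list were dim, from 5.72 to 5.99.

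Elastin-degrading proteases were split, 5 higher and 5 lower of 10, with a median of -0.01. The list held dim genes, the lowest averaging 4.36 over the litters. The cysteine proteases cathepsin S and cathepsin K had the smallest p-values, with Ctss at -0.17 (SE 0.08; limma adjusted p = 0.570) and Ctsk at -0.11 (SE 0.08; limma adjusted p = 0.708). Of 8 protease inhibitors 3 were higher and 5 lower, with a median of -0.02. Slpi, an inhibitor of neutrophil elastase, had means of 8.99 ± 0.18 in flutamide and 8.74 ± 0.15 in corn oil litters (SD, n = 7 each), 0.25 higher (SE 0.08; limma adjusted p = 0.363), and Timp2 differed by -0.07 (SE 0.06; limma adjusted p = 0.799). Among 6 receptor genes 1 was higher and 5 lower, with a median of -0.01. The integrin subunit genes Itgb3 and Itgb6 differed by -0.11 (SE 0.07; limma adjusted p = 0.642) and 0.11 (SE 0.07; limma adjusted p = 0.653).

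Markers of the cells in the sample were read beside these values, since in bulk tissue fewer cells of a type and less RNA per cell cannot be told apart. Skin markers were bright, with Krt10 and Krt1, keratins of the upper epidermis, at 12.34 and 11.97 in flutamide litters and 12.34 and 11.92 in corn oil litters. Fibroblast markers, 5 of 8 higher, had list means from 9.12 to 9.33 in flutamide litters, against 9.12 to 9.27 in corn oil litters. Smooth muscle markers, 8 of 9 lower, ran from 6.84 to 7.08 in flutamide litters, against 6.97 to 7.22 in corn oil litters. Skeletal muscle markers, all 6 lower, ran from 6.01 to 6.50 in flutamide litters, against 6.16 to 6.59 in corn oil litters. Endothelial and macrophage markers, all 6 of each lower, ran from 6.92 to 7.18 and from 5.98 to 6.25 in flutamide litters, against 6.998 to 7.35 and 6.10 to 6.50 in corn oil litters. Cartilage markers, all 5 higher, ran from 5.47 to 5.75 in flutamide litters, against 5.39 to 5.53 in corn oil litters, and epidermal markers, 2 of 4 higher, from 10.69 to 10.92 in flutamide litters, against 10.76 to 10.93 in corn oil litters. The cartilage list was dim, its mean below a log2 value of 6 in every litter, with its lowest gene averaging 4.76. None of the 53 markers measured passed in limma. They include 9 interferon-response markers, 5 with higher and 4 with lower means in flutamide litters. Before adjustment 7 had a p under 0.05, beside 9.16% of all genes, of which 1 was higher and 6 were lower in flutamide litters, where 5.70% of all genes were higher and 3.46% lower. Of the 6 lower, 3 were smooth muscle markers. Des differed by -0.34 (SE 0.07; limma adjusted p = 0.302), Actg2 by -0.39 (SE 0.12; limma adjusted p = 0.348) and Myh11 by -0.24 (SE 0.09; limma adjusted p = 0.450). The others were the fibroblast marker Dpt, at -0.17 (SE 0.07; limma adjusted p = 0.457), and markers of skeletal muscle and macrophages. These were Ckm, at -0.19 (SE 0.07; limma adjusted p = 0.443), and Cd163, at -0.21 (SE 0.06; limma adjusted p = 0.348). The 1 higher was the cartilage marker Hapln1, at 0.15 (SE 0.07; limma adjusted p = 0.524). The part of any of the cell types above in the differences of Mfap5, Eln and Lox was not tested.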

How the data were processed

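The authors deposited log2 values for 28826 probe sets in 14 samples, made with RMA per the submitters' processing notes. RMA's version and summary level are not stated in those notes. It equalises the arrays, so a change shared by most genes is removed. Depth does not apply to arrays, and their number limits the precision.

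Probe sets were named from GEO's platform annotation, with symbols updated by gene number through RefSeq (GRCr8), which matched 14471 of 14497 genes. Where a gene had several probe sets the brightest was used. Groups were compared with limma 3.58.1 (R 4.3.3), with two-sided tests, p-values adjusted by Benjamini-Hochberg across every gene tested, and no filter on dim genes. The fit was tested on simulated data. Pair correlations used 100000 permutations.

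The 8 genes and the gene lists were chosen with earlier results of these data known. The rule for named genes took the 8, the 2 smallest p-values in each pathway list and the 3 genes most like each of the 8. Fbln5, Efemp2, Des, Actg2, Myh11, Dpt, Ckm, Cd163, Hapln1, Krt1 and Krt10 were named after their values were seen. List genes with no probe set of 1 symbol were not analysed here. Replicate numbers are shared between groups, but same-numbered samples deviated together with correlations of -0.07 to 0.15, over 0.1 in 1 of 7 pairs, so the main fit has no block. The alternatives were other probe set rules, scalings, filters, models and tests, and each litter left out in turn.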

Additional observations from a re-analysis of the deposited data

Results flagged for a closer look

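Corn oil replicate 1 lay far from the other corn oil litters for 2 genes. Mfap5 was at 8.98 in this litter, with the next corn oil litter at 8.32 and the lowest at 7.86. Loxl1 was at 7.45, with the next at 7.28 and the lowest at 7.22. The gap to the nearest litter, as a share of the range of the group, was 0.591 for Mfap5 and 0.738 for Loxl1, above Dixon's critical value of 0.568 for 7 samples. Both groups were examined for each of the 8 genes, 16 groups in all, of which chance flags about 1 in 20.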

How the results depend on the processing

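No alternative brought any of the 8 genes past an adjusted p of 0.05. Over 25 alternatives each, the lowest adjusted p was 0.296 for Mfap5, with the replicate number as a block, and 0.393 for Eln, without flutamide replicate 1. Eln, Fbn1, Lox, Loxl1 and Mfap5 kept their sign in every alternative. For some alternatives this was fixed in advance. The probe set rules, the filter, trend and robust moderation, the replicate block and the exact test left each difference as it was. They could change only its error or p. With 1 litter omitted at a time, Eln ran from 0.12 to 0.17, Lox from 0.07 to 0.10, Fbn1 from -0.15 to -0.07, Loxl1 from -0.12 to -0.04 and Mfap5 from -0.41 to -0.22. Fbn2 ran from -0.0537 to 0.00782, Fbln1 from -0.0140 to 0.0787 and Fbln2 from -0.0161 to 0.0614, each changing sign. Without both corn oil replicate 1 and flutamide replicate 7, Fbn2 was 0.0130, Loxl1 -0.02, Fbn1 -0.07 and Fbln1 0.10. The cause of these sign changes was not tested. With array SD as a covariate, Fbn1 was -0.06 and Loxl1 -0.04.

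The number of genes called over all genes was 1, Snrpf, named after its value was seen. It was 2 with a filter at a mean log2 value of 6 or with trend and robust moderation, and 0 with median-centred samples, with the replicate block, without corn oil replicate 1 and flutamide replicate 7 together, or with array SD as a covariate. Leaving out 1 litter at a time gave 0 or 1. None of the called genes was one of the 8. The count at an unadjusted p under 0.05 was 1328, against 2822 over all probe sets and 569 with the filter, where fewer genes were tested. The replicate block changed no other call, and for pair correlations it left 7 values per gene, with a median r of 0.39 and 0 pairs passing. The median pair r lay between 0.08, without corn oil replicate 1, and 0.30 when 1 litter was omitted, and was 0.38 with median-centred samples.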
